A study of Mus musculus with 10 samples.

Results

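The 7 genes described here carry the Lin28, Trim71 and microRNA machinery of the mouse: Lin28a, Lin28b and Trim71, which act in development, and Dgcr8, Drosha, Dicer1 and Ago2, which process and use microRNAs in nearly every cell. They were named as a list, with earlier results of these data known, by a rule that uses no measured value. They are 7 of the 21938 protein-coding genes that GENCODE M21 places on chromosomes 1 to 19, X and Y of mm10. For each gene the H3K4me3 peaks and the ATAC-seq peaks were read in a window of 2 kb either side of its start, in its body, and up to 30 kb around it.

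The cells were F123, a single mouse embryonic stem cell line from an F1 cross of Mus musculus castaneus and S129/SvJae, with no treatment or allele added. They were grown with LIF on irradiated CF1 mouse embryonic fibroblasts and passaged on feeder-free gelatin plates before harvest. H3K4me3 ChIP-seq used 2000000 fixed cells and ATAC-seq 100000 cells per sample, each in 2 biological replicates of the 10 samples in the series, and the PLAC-seq and input samples were not analysed here. Each assay gave 1 list of replicated peaks, so no value below has a spread between replicates, no test between samples was possible, and depth is unknown because the lists hold no read counts.

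H3K4me3 is a histone mark found at the starts of active genes and of many genes held ready for use, and ATAC-seq finds open chromatin through the insertions of the Tn5 transposase. The microRNA let-7 accumulates as cells differentiate. Its primary transcript is cut in the nucleus by Drosha with its RNA-binding partner Dgcr8, the hairpin is cut in the cytoplasm by Dicer1, and the mature strand is loaded into an Argonaute protein such as Ago2. Lin28a and Lin28b bind let-7 precursors and block this maturation, and let-7 in turn represses Lin28 and Trim71, a TRIM-NHL protein known as a let-7 target since its discovery in worms as lin-41. The loop is known for its part in the timing of stem cell differentiation.

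The sequences show where 4 of the 7 messages hold letters that match the let-7 seed. All 9 mature let-7 sequences matched in the RefSeq table share the same seed, which is written in capitals (bases 2 to 8). 4 of the 9 are printed to show where the family differs outside the seed.
mmu-let-7a-5p: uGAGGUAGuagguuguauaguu
mmu-let-7d-5p: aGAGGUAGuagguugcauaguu
mmu-let-7i-5p: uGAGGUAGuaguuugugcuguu
mmu-miR-98-5p: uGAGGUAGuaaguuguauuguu

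The 7 bases that pair with this seed, CTACCTC in the message strand, were searched in the 3′ UTR of 1 transcript per gene (RefSeq genome GRCm38.p6, GENCODE M21 models). They occurred in 9.04% of the 20981 genes with a 3′ UTR and at 2 or more places in 1.08%. Lin28a had 2 matches in 2775 bp, a number reached by 2.06% of the 2624 genes with a 3′ UTR of like length. Lin28b had 4 in 4445 bp, reached by 0.295% of 1358 such genes, and Trim71 had 4 in 5512 bp, reached by 0.479% of 835. All 3 developmental genes therefore held repeated matches. Among the processing genes, Ago2 had 3 in a long 3′ UTR of 11064 bp, reached by 1.28% of only 78 genes of like length. Dgcr8, Drosha and Dicer1 had none of these letters in 3′ UTRs of 1574, 169 and 3851 bp. A match occurred in only 10.7%, 0.804% and 21% of the genes of like length for these 3. Having none was therefore the usual outcome at such lengths and does not set these 3 genes apart. At least 1 match occurred in 14.7% of the genes of like length for Lin28a, 24.4% for Lin28b, 29.9% for Trim71 and 46.2% for Ago2. All matches of these 4 genes are printed with the seed match in capitals within 23 bases of sequence.
Lin28a site 1, chr4:134005189-134005211 (- strand): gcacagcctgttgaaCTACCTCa
Lin28a site 2, chr4:134004551-134004573 (- strand): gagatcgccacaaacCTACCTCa
Lin28b site 1, chr10:45381022-45381044 (- strand): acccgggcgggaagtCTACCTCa
Lin28b site 2, chr10:45378648-45378670 (- strand): tatacttgttagtaaCTACCTCt
Lin28b site 3, chr10:45378476-45378498 (- strand): gtttacagcacatggCTACCTCc
Lin28b site 4, chr10:45377060-45377082 (- strand): aaatgatggcaccgaCTACCTCt
Trim71 site 1, chr9:114512472-114512494 (- strand): aacattgcctaagtcCTACCTCa
Trim71 site 2, chr9:114512376-114512398 (- strand): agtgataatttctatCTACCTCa
Trim71 site 3, chr9:114509047-114509069 (- strand): tttagtatggattttCTACCTCa
Trim71 site 4, chr9:114509021-114509043 (- strand): ttggcaaaaagttgtCTACCTCa
Ago2 site 1, chr15:73101724-73101746 (- strand): acagatgcataaaagCTACCTCt
Ago2 site 2, chr15:73100040-73100062 (- strand): caggtggcctctgtcCTACCTCc
Ago2 site 3, chr15:73097982-73098004 (- strand): ttttacaatgtggatCTACCTCa

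The base after the match, opposite the first base of the microRNA, was A in both Lin28a sites, in 1 of the 4 Lin28b sites, in all 4 Trim71 sites and in 1 of the 3 Ago2 sites. An A there is read by Argonaute itself and not through pairing. Trim71 sites 1 and 2 began 96 bp apart, and sites 3 and 4 began 26 bp apart. These matches are letters in the reference genome, and no microRNA binding was measured in these data.

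The starts of the genes were compared next. 6 of the 7 members had a promoter in the RefSeq table (GRCm38.p6, 250 bases before the start to 50 after it), and Ago2 had none. The first 4 lines below are those of the developmental genes, with both starts of Lin28b, and the last 2 are those of Drosha and Dicer1 as examples of the processing genes. Capitals mark each CG dinucleotide, the base pair in which CpG islands are rich.
Lin28a promoter, chr4:134018767-134019066 (- strand): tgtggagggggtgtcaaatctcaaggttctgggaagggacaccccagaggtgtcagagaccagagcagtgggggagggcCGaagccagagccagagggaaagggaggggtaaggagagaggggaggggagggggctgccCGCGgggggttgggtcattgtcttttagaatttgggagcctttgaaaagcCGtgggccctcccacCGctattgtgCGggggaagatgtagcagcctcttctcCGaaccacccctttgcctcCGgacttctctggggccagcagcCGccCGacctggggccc
Lin28b coding promoter, chr10:45470152-45470451 (- strand): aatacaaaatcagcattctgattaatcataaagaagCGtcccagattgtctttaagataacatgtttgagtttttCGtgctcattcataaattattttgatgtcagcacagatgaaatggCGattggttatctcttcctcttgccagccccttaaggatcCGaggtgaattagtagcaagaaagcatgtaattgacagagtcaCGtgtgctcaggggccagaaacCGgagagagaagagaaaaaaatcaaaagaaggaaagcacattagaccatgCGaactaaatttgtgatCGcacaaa
Lin28b upstream start, chr10:45486346-45486645 (- strand): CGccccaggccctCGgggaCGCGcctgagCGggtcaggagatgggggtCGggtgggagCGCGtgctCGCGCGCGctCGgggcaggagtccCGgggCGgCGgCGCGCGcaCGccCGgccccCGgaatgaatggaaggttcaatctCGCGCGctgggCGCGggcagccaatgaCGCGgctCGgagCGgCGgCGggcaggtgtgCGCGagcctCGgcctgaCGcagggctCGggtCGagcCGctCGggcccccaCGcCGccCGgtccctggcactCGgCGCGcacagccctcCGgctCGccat
Trim71 promoter, chr9:114564320-114564619 (- strand): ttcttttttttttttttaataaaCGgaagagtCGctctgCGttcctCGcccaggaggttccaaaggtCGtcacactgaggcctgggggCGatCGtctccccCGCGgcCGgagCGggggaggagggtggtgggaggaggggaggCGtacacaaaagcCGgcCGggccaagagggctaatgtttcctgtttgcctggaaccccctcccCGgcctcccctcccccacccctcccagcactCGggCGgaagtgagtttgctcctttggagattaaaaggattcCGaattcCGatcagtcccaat
Drosha promoter, chr15:12824565-12824864 (+ strand): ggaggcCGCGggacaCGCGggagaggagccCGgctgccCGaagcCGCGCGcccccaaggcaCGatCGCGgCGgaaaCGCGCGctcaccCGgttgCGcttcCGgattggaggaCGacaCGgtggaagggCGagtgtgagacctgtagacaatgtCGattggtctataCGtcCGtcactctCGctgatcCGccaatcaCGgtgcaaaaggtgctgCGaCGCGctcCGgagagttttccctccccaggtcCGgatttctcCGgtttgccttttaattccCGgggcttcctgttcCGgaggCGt
Dicer1 promoter, chr12:104751903-104752202 (- strand): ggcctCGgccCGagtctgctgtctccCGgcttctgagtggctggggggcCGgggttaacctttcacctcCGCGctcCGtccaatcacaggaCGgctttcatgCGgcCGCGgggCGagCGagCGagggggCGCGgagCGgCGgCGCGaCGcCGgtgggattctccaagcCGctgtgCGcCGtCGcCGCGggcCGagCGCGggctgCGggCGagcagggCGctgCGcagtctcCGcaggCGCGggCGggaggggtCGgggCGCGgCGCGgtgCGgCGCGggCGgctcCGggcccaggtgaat

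The promoters of the 3 processing genes in the table held more CG dinucleotides than those of the developmental coding transcripts. Dgcr8 had 43 in 300 bases, Drosha 37 and Dicer1 49, against a median of 14 over the 20150 promoters of protein-coding genes in the table. Lin28a had 10, the coding start of Lin28b 8 and Trim71 19. The count at Trim71 was above that of 60.6% of promoters, and a denser stretch follows its start, described with that gene. The number of CG dinucleotides over that expected from the C and G content, written below as the CpG ratio, was 1.04 at Dgcr8, 1.19 at Drosha and 1.12 at Dicer1, above 94.1% to 99.2% of promoters. It was 0.35 at Lin28a, 0.71 at Lin28b and 0.72 at Trim71, and the median was 0.59. The values of the 3 genes in each group did not overlap, but Ago2, the other processing gene, is missing from this comparison. With the upstream start of Lin28b (49 CG dinucleotides, ratio 1.07) in place of its coding start the values overlapped. Over the whole H3K4me3 peaks at the gene starts the ratios also overlapped. They were 0.56 at Dgcr8, 0.64 at Drosha, 0.82 at Dicer1 and 0.68 at Ago2, against 0.38 at Lin28a, 0.63 at Trim71, and 1.14 at the upstream or 0.38 at the coding start of Lin28b.

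Short motifs were searched on both strands of the same promoters, and a match is a description only. The TATA box TATAAA was in none of the 6 and in 12.1% of all promoters. CCAAT was in 5 of the 6, with 4 matches at Dgcr8 and 3 at Drosha, and in 37.8% of all. The GC box GGGCGG was in 4 of the 6 and in 47.8% of all. The E-box CACGTG was at the coding start of Lin28b alone among the 6, against 8.0% of all promoters.

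All 7 genes had peaks of both kinds within 2 kb of their starts. Among all protein-coding genes, 66.4% had an H3K4me3 peak there, 74.6% an ATAC-seq peak and 65.9% both. Each member had exactly 1 H3K4me3 peak in the window, where 8.21% of genes had 2 or more. The fold enrichment of that peak, the authors' ratio of signal to the background their peak caller expected, was highest at Ago2 (58.50), then Drosha (54.85), Trim71 (49.43), Lin28a (45.18), Dicer1 (35.09), Dgcr8 (33.94) and Lin28b (29.54). The median over the 14576 protein-coding genes with a peak was 30.54, so 6 members lay above it and the upstream start of Lin28b just below. The only coding transcript of Lin28b starts elsewhere, at a peak with a fold of 13.29, described with that gene. Whether neighbours in this order differ could not be judged without replicate values.

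**Figure D1:**
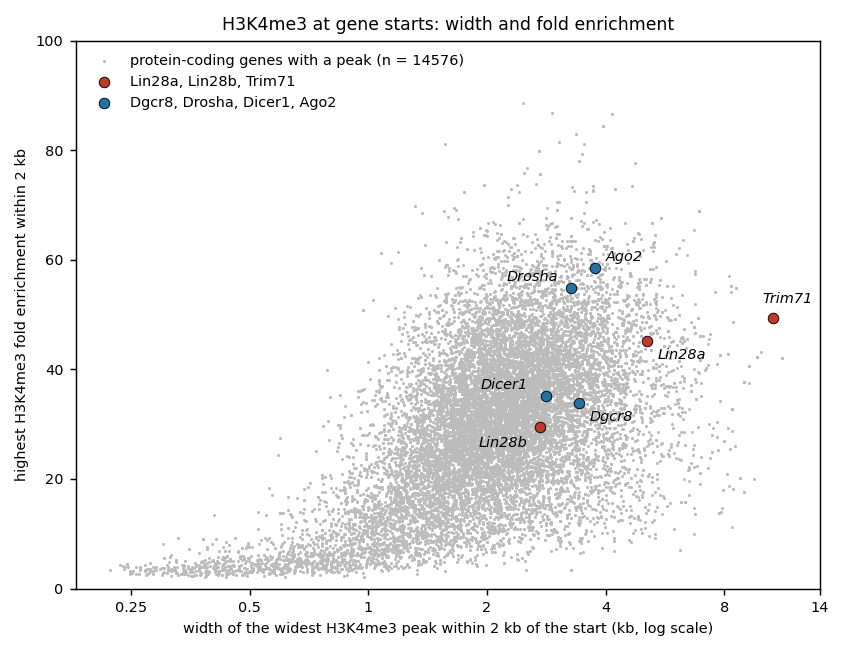
Each point is a protein-coding gene with an H3K4me3 peak within 2 kb of its start; the horizontal axis is the width of the widest such peak in kb (log scale) and the vertical axis the highest fold enrichment. Trim71 sits at the far right with a peak of 10629 bp, Lin28a is the next member at 5092 bp, and the other 5 members lie between 2728 and 3762 bp.

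The developmental and the processing genes overlapped at the gene starts in fold enrichment and in every other measure of the window. The median fold was 45.18 for the 3 developmental genes and 44.97 for the 4 processing genes. This difference of 0.21 turned to −15.43 when a peak counted only by its midpoint, which for the wide Trim71 peak lies outside the window. The bases of the 4001 bp window under an H3K4me3 peak ran from 2728 to 3799 (median 3021) in the former and from 2822 to 3249 (median 2916.5) in the latter, and both medians were above the 2178 bp of marked genes in general. ATAC-seq peaks covered 1465 to 2497 bp (median 1852) against 865 to 1737 bp (median 1277), where marked genes had a median of 1030 bp. With 3 genes against 4, and genes that are not replicates of each other, no test was made.

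The widths of the start peaks depended on which start of Lin28b was taken. The peak at the gene start was 10629 bp wide at Trim71, 5092 bp at Lin28a and 2728 bp at Lin28b, and between 2822 and 3762 bp at the 4 processing genes. The median over marked genes was 2165 bp. At the gene start Lin28b thus had the narrowest peak of the 7, and the groups overlapped. At its coding start, a setting added after seeing the data, the peak was 3999 bp wide. With that value all 3 developmental genes had a wider peak than any processing gene. Of the 14576 marked genes, 1454 had a peak wider than the 3762 bp of Ago2, the widest of the processing genes.

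**Figure D2:**
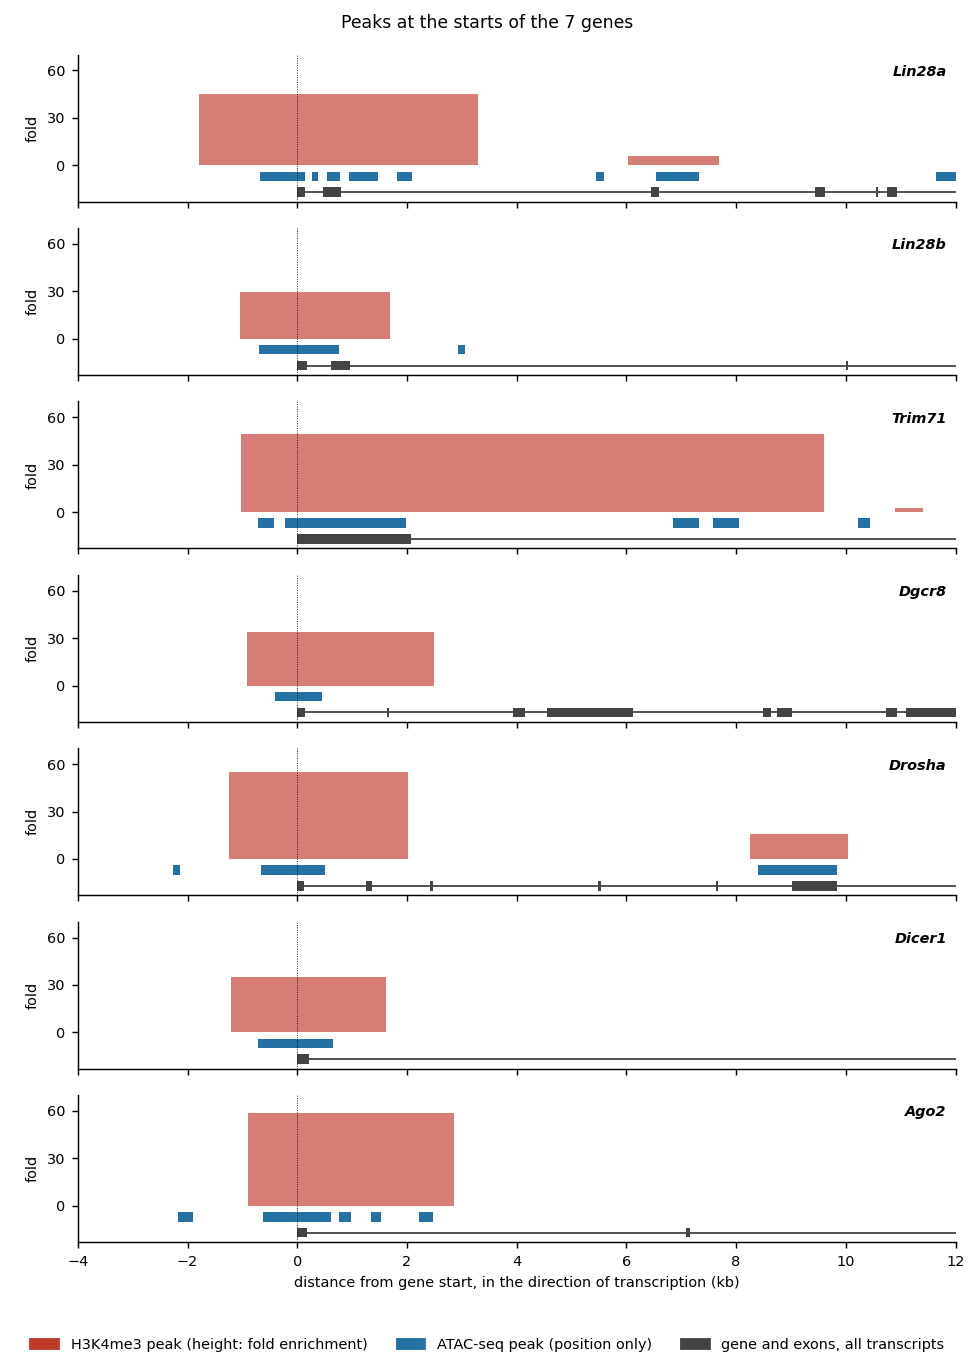
Peaks from 4 kb before to 12 kb after the start of each of the 7 genes, along the direction of transcription; red bars are H3K4me3 peaks with their fold enrichment as height, blue bars ATAC-seq peaks (position only) and grey bars exons. The H3K4me3 peak of Trim71 runs 9608 bp into the gene, and those of the other genes end within 3293 bp.

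Trim71 (ENSMUSG00000079259.2, chr9:114507133-114564369 on the minus strand, 57.2 kb) had an H3K4me3 peak that few others in the list matched for width. The peak at chr9:114554761-114565389 spanned 10629 bp with a fold of 49.43 and a −log10 q of 619.2, where q is the p-value of the peak adjusted by the peak caller. Only 3 of the 33487 peaks in the list were wider, and 2 of the 14576 marked genes, Rhof and Setd1b, which share 1 peak of 11177 bp, had a wider one. It reached 1020 bp before the start and 9608 bp into the gene. Trim71 has a single annotated transcript of 4 exons, so exon 1 (2065 bp) and the beginning of a long intron 1 lay beneath it. The summit fell in exon 1 at 1819 bp from the start.

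The wide Trim71 peak was not uniform in sequence or in openness. Its first 2 kb after the start held 142 and 138 CG dinucleotides per kb, at CpG ratios of 1.15 and 1.05. The next kb had 44, and from 4 to 10 kb the count was between 7 and 17 per kb. ATAC-seq peaks followed the same first stretch, with 1000 and 978 bp of these 2 kb covered by an ATAC-seq peak of 2205 bp. No ATAC-seq peak lay from 2 to 6 kb, and 2 more lay between 6 and 9 kb, one of them with the octamer ATGCAAAT. In its window, Trim71 had 2497 bp under ATAC-seq peaks, and 24 of the 21938 protein-coding genes had more.

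**Figure D3:**
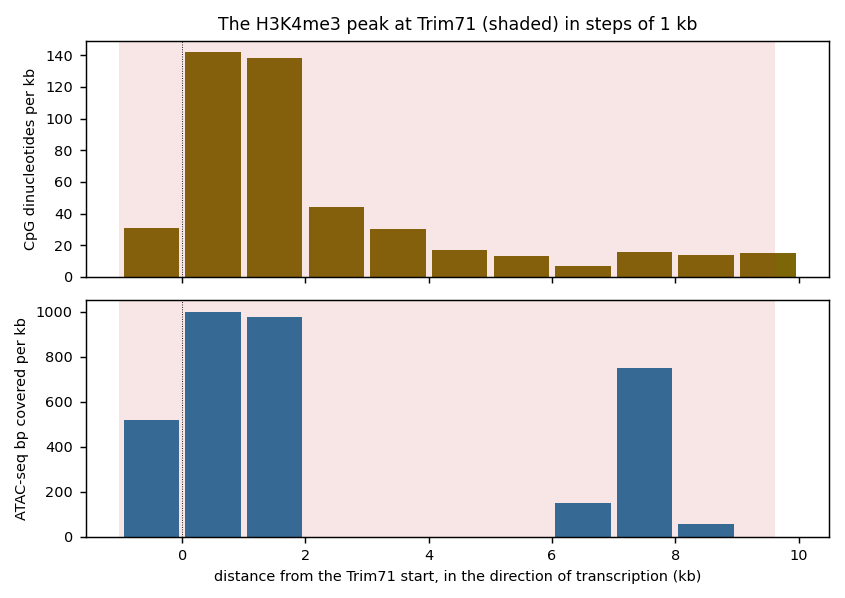
CG dinucleotides (top, count per kb) and bases under ATAC-seq peaks (bottom, bp per kb) in steps of 1 kb from 1 kb before to 10 kb after the Trim71 start, with the H3K4me3 peak shaded. Both are highest in the first 2 kb (142 and 138 CG, 1000 and 978 bp), the CG count is 7 to 17 per kb from 4 kb on, and ATAC-seq peaks return near 7 to 8 kb (750 bp) while the shaded peak continues.

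Beyond its start, Trim71 had 7 more H3K4me3 peaks in its body. Of protein-coding genes of at least 10 kb, 36.6% had such a peak outside the start window and 1.12% had 7 or more. The 7 at Trim71 include calls with a −log10 q of 4.3 and 3.0, below the alternative minimum of 5. The share of genes at that minimum was not computed. 5 of the 7 lay within intron 1, between 11.2 and 16.2 kb from the start by their summits, with folds of 2.33 to 4.59, low in the list, whose median fold was 8.93. The widest, chr9:114525796-114529308, measured 3513 bp with a fold of 9.58 and lay in the same intron with 4 ATAC-seq peaks of 293 to 602 bp beneath it. The last one (fold 4.55) lay 101 bp from the start of C130032M10Rik, a gene on the other strand, and the peak cannot be told apart from one of that gene.

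The surroundings of Trim71 were marked as well. An H3K4me3 peak of 1489 bp at chr9:114583657-114585145, upstream at −19.7 kb from the start, had a fold of 11.93 and a −log10 q of 133.6, and an ATAC-seq peak of 1306 bp covered 81.8% of it. The nearest start of another gene, the small nuclear RNA Gm23232, was 17047 bp from it. A smaller peak (fold 3.07) lay at −14.7 kb. Downstream, 3 peaks with folds of 3.53 to 4.21 lay near Ccr4, a chemokine receptor gene that had no H3K4me3 peak within 2 kb of its own start. In all, 13 H3K4me3 peaks and 33 ATAC-seq peaks fell at Trim71 and within 30 kb.

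The body of Trim71 was dense in ATAC-seq peaks, a count of calls without a measure of strength. It held 22 ATAC-seq peaks, or 3.84 per 10 kb, more than in 97.9% of protein-coding genes of at least 10 kb, whose median was 1.02. Of the 21 outside the start window, 20 had their middle in an intron and 9 lay under an H3K4me3 peak. The octamer occurred in 3 of its 33 ATAC-seq peaks (9.1%), all in the gene body at 7.8, 15.0 and 45.9 kb, against 3.6% of all ATAC-seq peaks on the main chromosomes. With 3 matches this is a count and not a difference. Over the ATAC-seq peaks of all 7 loci the octamer was in 3 of 144 (2.1%), all 3 at Trim71. The motifs searched beside it were those of CTCF, KLF4 and ESRRB. They were in 6.2%, 1.4% and 1.4% of the 144 peaks, against 6.4%, 5.5% and 0.9% of all ATAC-seq peaks.

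Lin28a (ENSMUSG00000050966.9, chr4:134003330-134018841 on the minus strand, 15.5 kb) had the next widest start peak. It ran over chr4:134015548-134020639, 5092 bp, from 1798 bp before the start to 3293 bp after it, with a fold of 45.18 and a −log10 q of 574.7. It covered 3799 of the 4001 bp of the window, more than in 98.3% of protein-coding genes. 393 of the 14576 marked genes had a wider peak. Beneath it lay 5 ATAC-seq peaks of 102 to 810 bp, where the median marked gene had 1. The summit was at 560 bp, in the first exon of the alternative coding transcript Lin28a-204, which starts 459 bp inside the gene. The antisense noncoding gene Gm13061 starts 694 bp inside Lin28a, under the same peak, so the mark of these starts cannot be told apart.

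The start peak of Lin28a was poor in CG dinucleotides beside the start peaks of all marked genes. Its CpG ratio was 0.38, and 1007 of the 14576 start peaks had a lower one (6.9%), although its GC content of 54.9% was close to the median of 54.3%. A further H3K4me3 peak lay in the body at chr4:134011145-134012810, 1666 bp with a fold of 6.0, over the start of the coding transcript Lin28a-202, and an ATAC-seq peak of 768 bp lay in it. The short gene held 8 ATAC-seq peaks, 5 of them in the start window, or 5.16 per 10 kb, more than in 99.7% of genes of at least 10 kb. The only other H3K4me3 peak in the surroundings belonged to the start of Dhdds, a gene of dolichol synthesis 17923 bp away, with a fold of 25.59.

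Lin28b (ENSMUSG00000063804.8, chr10:45376620-45486395 on the minus strand, 109.8 kb) had 2 separate marked starts. The 5′ end of the gene in the annotation belongs to noncoding processed transcripts (Lin28b-203, with Lin28b-202 starting 618 bp inside), and the only coding transcript, Lin28b-201, starts 16194 bp inside the gene. The upstream start had a peak of 2728 bp at chr10:45484711-45487438 with a fold of 29.54 and a −log10 q of 481.1, and a single ATAC-seq peak of 1465 bp covered 53.7% of it. The coding start had a broader and lower peak of 3999 bp at chr10:45467635-45471633, with a fold of 13.29 and a −log10 q of 174.2. That fold was below those at the starts of all 4 processing genes. The first base of the coding transcript was not in an ATAC-seq peak, and the nearest of 2 in the window lay 93 bp away.

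The 2 starts of Lin28b were unlike in sequence. The H3K4me3 peak of the upstream start had a CpG ratio of 1.14, and none of the other 14575 start peaks had as high a ratio. The peak of the coding start had a ratio of 0.38. In the promoters printed above, the upstream start held 49 CG dinucleotides at 78.3% GC, and the coding start 8 at 39.0% GC, a GC content below which only 7.2% of promoters lay. Between them another peak of 1717 bp at chr10:45472542-45474258 had a fold of 15.53, with no annotated start inside and 2 ATAC-seq peaks beneath.

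A last H3K4me3 peak of Lin28b lay in an intron 39.8 kb from the gene start, with a fold of 2.97 over 665 bp. The body held 11 ATAC-seq peaks, 1.0 per 10 kb, about the median of genes of its kind. Of the 10 outside the window at the gene start, 5 lay under an H3K4me3 peak. No other gene starts within 30 kb, and no H3K4me3 peak lay around Lin28b outside the gene.

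Drosha (ENSMUSG00000022191.16, chr15:12824815-12935291 on the plus strand, 110.5 kb), the RNase III enzyme of the Microprocessor, had a start peak of 3272 bp at chr15:12823567-12826838. Its fold was 54.85, which 598 of the 14576 marked genes exceeded, and its −log10 q was 653.1. The summit lay outside the gene, at −311 bp from the start. The gene 6030458C11Rik starts 166 bp away on the other strand, under the same peak and the same ATAC-seq peak of 1184 bp, so the mark of this divergent pair cannot be told apart. Drosha was the only processing gene with H3K4me3 peaks elsewhere in its body. One of them, at chr15:12833075-12834858, 8.9 kb into the gene, had a fold of 15.52 over 1784 bp, and an ATAC-seq peak of 1435 bp covered 80.4% of it. No annotated start lay inside it. The other lay at 62.4 kb, with a fold of 9.74 over 693 bp. Past the end of the gene, peaks with folds of 4.13 and 5.07 lay 136.4 and 137.4 kb from its start.

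Dgcr8 (ENSMUSG00000022718.12, chr16:18253948-18289246 on the minus strand, 35.3 kb), the RNA-binding partner of Drosha, had a start peak of 3415 bp at chr16:18286754-18290168 with a fold of 33.94 and a −log10 q of 678.3. One ATAC-seq peak of 865 bp lay in it, the smallest cover of the 7 members and below the 1030 bp median of marked genes. Its body had no other H3K4me3 peak and 3 ATAC-seq peaks, 0.85 per 10 kb. Mir1306, a microRNA within Dgcr8, had no peak of either kind within 2 kb. The stronger marks nearby were those of its neighbours downstream: Ranbp1 and Trmt2a shared a peak with a fold of 63.49 over 4691 bp, and Zdhhc8 had one of 44.36.

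Dicer1 (ENSMUSG00000041415.10, chr12:104687742-104751952 on the minus strand, 64.2 kb), the enzyme that cuts the hairpin, had a start peak of 2822 bp at chr12:104750339-104753160 with a fold of 35.09 and a −log10 q of 556.3. One ATAC-seq peak of 1370 bp lay in it. Of its 6 annotated transcripts only 1 starts under the peak, and the coding transcript Dicer1-203, which starts 13115 bp inside, had no H3K4me3 peak within 2 kb. The CpG ratio of the start peak, 0.82, was above that of 94.9% of start peaks. A peak with a fold of 9.81 lay upstream, at −9.4 kb from the start, with an ATAC-seq peak of 389 bp in it. The nearest start of another gene was 95450 bp from that peak. The body held 9 ATAC-seq peaks, 1.4 per 10 kb, and no other H3K4me3 peak. Past the end of the gene, a peak of 323 bp with a fold of 3.54 lay 74.3 kb from its start.

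Ago2 (ENSMUSG00000036698.11, chr15:73095844-73184935 on the minus strand, 89.1 kb), the Argonaute that can cut its target, had the strongest start peak of the 7. It measured 3762 bp at chr15:73182083-73185844 with a fold of 58.50, which 328 of the 14576 marked genes exceeded, and a −log10 q of 886.7. The window held 4 ATAC-seq peaks that covered 1737 bp, the most of the processing genes. The body had no other H3K4me3 peak and 18 ATAC-seq peaks, 2.02 per 10 kb. Downstream, Chrac1 had its own start peak with a fold of 24.35, and 2 small peaks lay in the direction of Trappc9, with folds of 7.83 and 5.21.

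**Figure D4:**
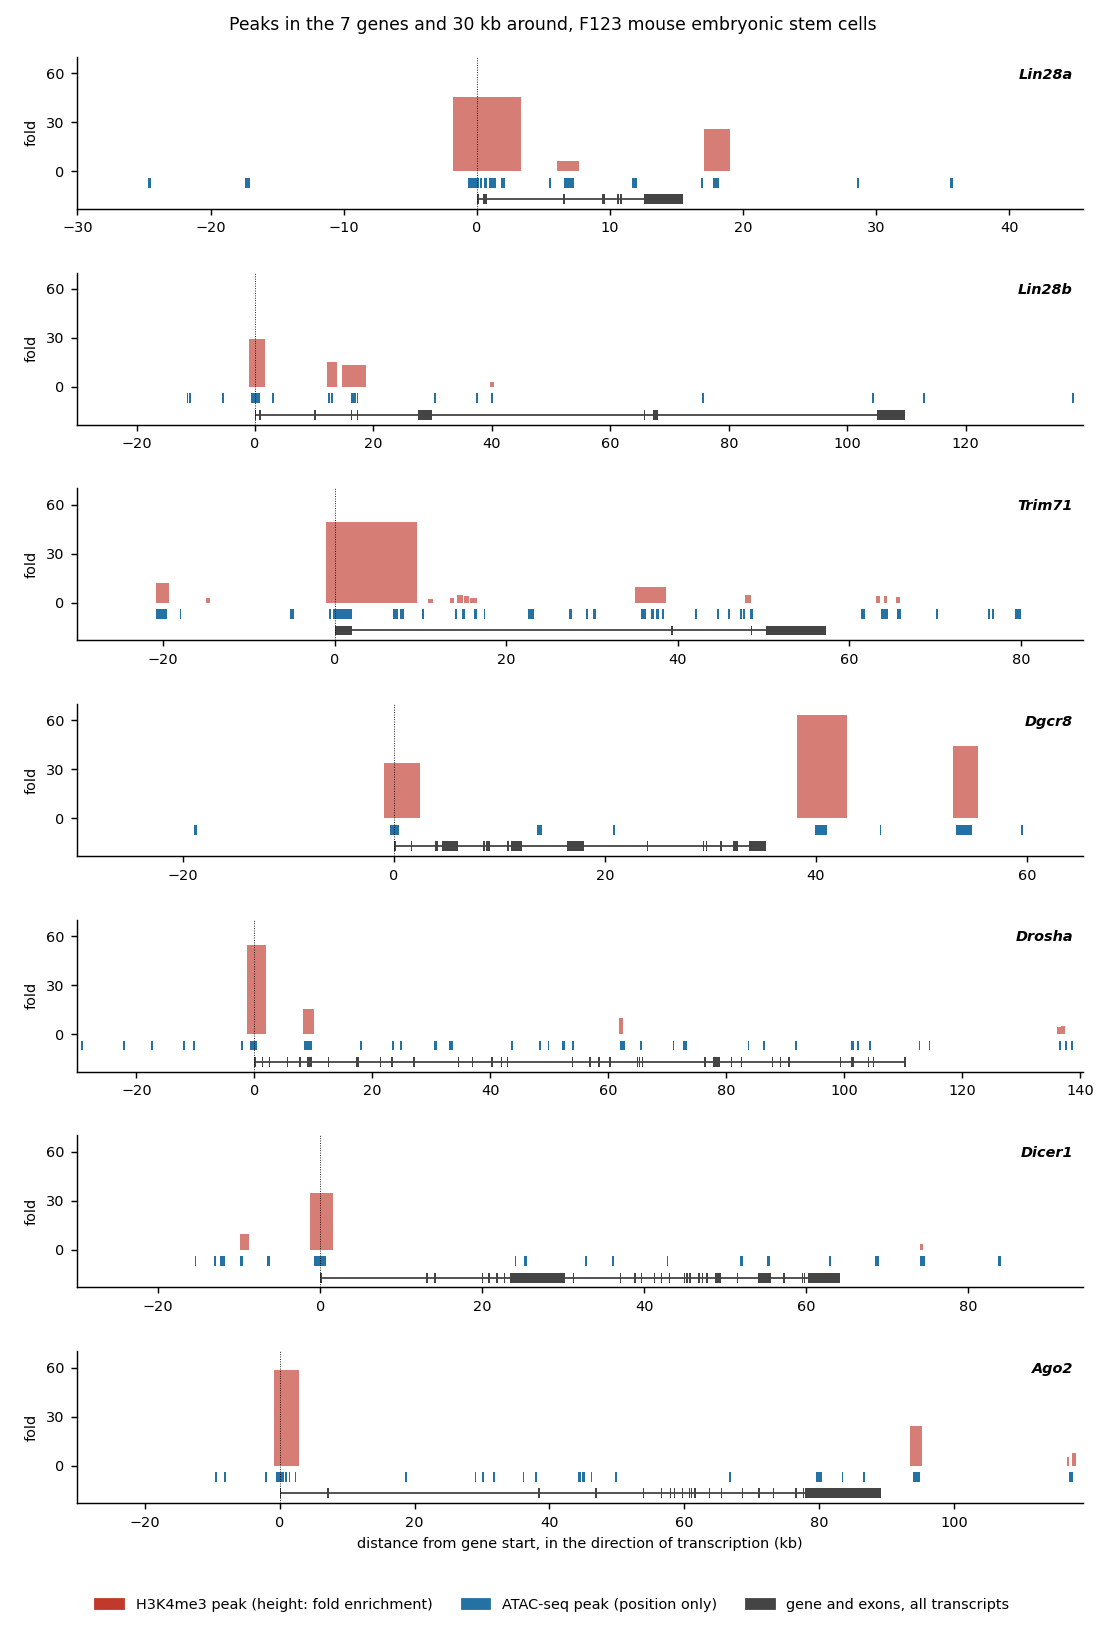
H3K4me3 peaks (red, height is the fold enrichment), ATAC-seq peaks (blue, position only) and exons (grey) over each of the 7 genes and 30 kb around, by distance from the gene start in kb along the direction of transcription. Lin28a, Lin28b and Trim71 have 1, 3 and 7 H3K4me3 peaks in the body outside the start window, Drosha has 2, and Dgcr8, Dicer1 and Ago2 have 0.

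In the gene bodies, all 3 developmental genes and 1 of the 4 processing genes had an H3K4me3 peak in the body outside the window, beside 36.6% of genes of at least 10 kb. The counts, 1, 3 and 7 against 0, 0, 0 and 2, overlapped. 2 of the peaks at the developmental genes lay over an annotated start of a coding transcript of the same gene, the 1 in Lin28a and the coding start of Lin28b. The ATAC-seq peaks per 10 kb, 5.16, 1.0 and 3.84 against 0.85, 1.99, 1.4 and 2.02, also overlapped, and all 7 genes had an ATAC-seq peak in the body outside the window, as 84.0% of such genes did. Gene length ran from 15.5 to 109.8 kb in the developmental and from 35.3 to 110.5 kb in the processing genes, and its part in these counts was not tested.

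Over the 7 genes and their surroundings the lists held 35 H3K4me3 and 144 ATAC-seq peaks. An ATAC-seq peak lay in 31 of the 35 H3K4me3 peaks, while 44 of the 144 ATAC-seq peaks shared a base with an H3K4me3 peak. At each of the 7 starts the summit of the H3K4me3 peak was inside an ATAC-seq peak, as at 89.7% of start peaks. In the gene bodies outside the windows, 80 ATAC-seq peaks were counted, 68 with the middle in an intron and 12 in an exon, and 18 lay under an H3K4me3 peak. Of the 34 annotated transcripts of the 7 genes, 18 started under an H3K4me3 peak and 15 in an ATAC-seq peak. Apart from the summits, the shares over all peaks, gene bodies and transcripts were not computed, so these counts describe the 7 loci only.

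The other genes of the pathway were marked at their starts. All 25 coding genes of 5 lists had both an H3K4me3 and an ATAC-seq peak within 2 kb, beside 65.9% of all protein-coding genes. With a window of 1 kb, 24 of the 25 had an H3K4me3 peak. They were the 5 genes of the Microprocessor and of export (Ddx5, Ddx17, Srrt, Xpo5 and Ran, median fold 42.74), 8 of the dicing and silencing complex (34.46), 3 partners of Lin28 in the decay of let-7 (Tut4, Tut7 and Dis3l2, 37.70), 3 TRIM-NHL relatives of Trim71 (30.41) and 6 known let-7 target genes (39.27). The target genes had the widest cover, with a median of 3671 bp of the window. Hmga2, an architectural chromatin protein, and the RNA-binding proteins Igf2bp1 and Igf2bp3 had all 4001 bp of the window covered, by peaks of 5007, 7268 and 6129 bp. The relatives of Trim71 did not have its wide peak, at 1909 bp (Trim2), 2271 bp (Trim3) and 1949 bp (Trim32).

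**Figure D5:**
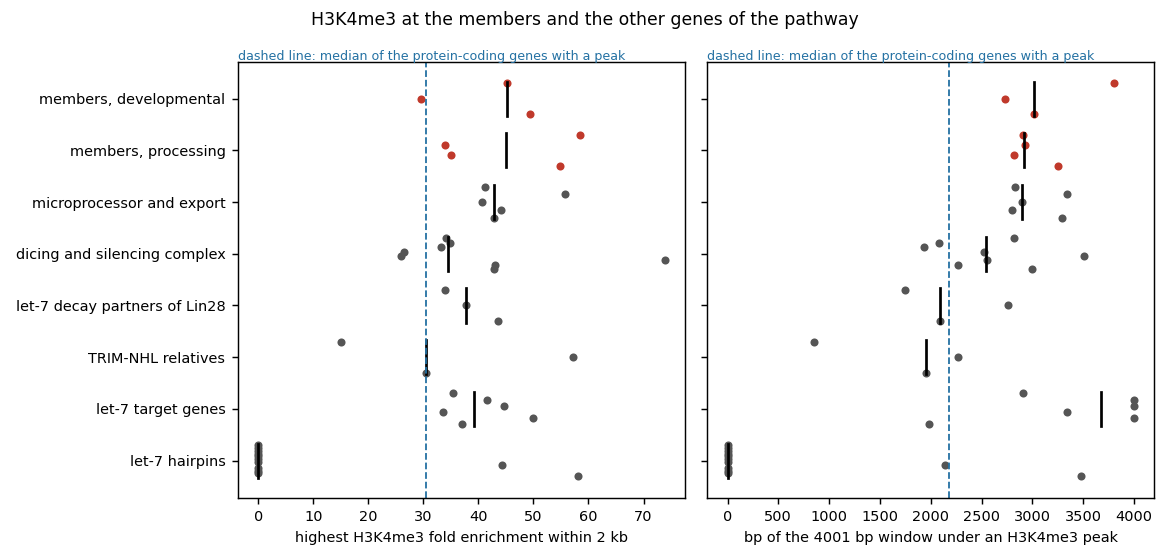
Highest H3K4me3 fold enrichment (left) and bases of the 4001 bp window under an H3K4me3 peak (right) for the members (red) and the genes of 6 lists (grey), 1 point a gene, with black bars at the list medians and a dashed line at the median of marked protein-coding genes (30.54 and 2178 bp). All coding genes lie above 0, and 10 of the 12 let-7 hairpins lie at 0.

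The let-7 hairpins were mostly without a peak. 2 of the 12 had an H3K4me3 peak within 2 kb, Mirlet7e (fold 44.21) and Mirlet7i (58.02), and Mirlet7g had ATAC-seq peaks only. Mirlet7a-1, Mirlet7a-2, Mirlet7b, Mirlet7c-1, Mirlet7c-2, Mirlet7d, Mirlet7f-1, Mirlet7f-2, Mirlet7g and Mir98 had no H3K4me3 peak there. These are not all separate places. The windows overlap among Mirlet7a-1, Mirlet7d and Mirlet7f-1, between Mirlet7b and Mirlet7c-2, and between Mirlet7f-2 and Mir98. The share over all microRNA genes was not computed, so the count is a description only. The annotated start of a hairpin is where the precursor begins and not where its primary transcript does, so these positions say nothing of the start of transcription.

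The label of the cells was read against marker genes. 7 of 8 embryonic stem cell markers had an H3K4me3 peak within 2 kb, Esrrb being the exception at its annotated 5′ end, with folds of 14.88 to 42.90. So did 5 of 8 fibroblast markers (3.39 to 20.36), 1 of 3 hepatocyte markers and 3 of 3 neuron markers (17.03 to 25.42). Among all protein-coding genes 66.4% had such a peak, so these counts alone do not tell the cell types apart. The mark is not a measure of transcription, and the part of remaining feeder cells in the peaks of the 7 genes was not tested.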

How the data were processed

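H3K4me3 ChIP-seq and ATAC-seq were made on F123 cells in 2 replicates each, and groups were taken from the labels. For H3K4me3 the authors ran ENCODE's histone ChIP-seq pipeline with default settings; aligner, threshold and use of input are not given in the sources used here. Its deposited columns hold a fold enrichment (a ratio), −log10 values of p and q, a display score that was not used, and positions. For ATAC-seq, the methods and the submitters' processing notes give alignment with Bowtie 1.1.2 and read ends moved by 4 bp for Tn5. Peaks were called with MACS2 2.1.1.20160309 at a p-value threshold of 0.01, and pooled peaks found in both replicates were kept (bedtools 2.27.1). That list holds positions only, so it carries no measure of strength. Pooling hides replicate spread, and nearby peaks that the caller merged appear as 1 wide peak.

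Peaks were joined to GENCODE M21 (mm10) genes when they shared at least 1 bp. 0 peaks ran past a chromosome end, and 6 of 6 member promoters in the RefSeq table were identical in the GRCm38.p6 genome. Window counts gave the same result with bedtools 2.31.1 for all 21938 genes, and 2000 of 2000 simulated windows were recovered. Python 3.11.15, pandas 2.3.3, numpy 2.4.6, pysam 0.24.0, samtools 1.23.1 and matplotlib 3.10.9 were used. No test was made.

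The members and lists were chosen with earlier results of these data known. The genes named were all 7 members, list genes without an H3K4me3 peak, the 2 with the widest cover of the window (3 were tied), the protein-coding genes nearest to each member over 3 measures (3 for Lin28a, 1 for the others), and neighbours within 30 kb with a peak at their start. Named outside this rule, with values known, were Rhof, Setd1b, Trim2, Trim3, Trim32, Tnrc6a, Ago1, Ago3, Ago4, Mirlet7e, Mirlet7i, Esrrb, Ccr4, Trappc9, Gm23232 and Mir1306, and, as the makeup of their lists, Ddx5, Ddx17, Srrt, Xpo5, Ran, Tut4, Tut7 and Dis3l2. The alternatives were windows of 1 and 5 kb, any transcript start, a −log10 q of at least 5, peak midpoints, the widest 50% of ATAC-seq peaks, and 10 or 50 kb around; the coding transcript start, and for the 2 groups any transcript start and midpoints, were added after seeing the data.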

Additional observations from a re-analysis of the deposited data

How the results depend on the processing

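The count of 7 of 7 genes with an H3K4me3 peak, and of 7 of 7 with an ATAC-seq peak, was the same with windows of 1 and 5 kb, with any transcript start with a −log10 q of at least 5, with the widest 50% of ATAC-seq peaks, and with the coding transcript start, a setting added after seeing the data. By peak midpoint the H3K4me3 count was 6, since the midpoint of the wide Trim71 peak lies outside its window. The difference of the group medians in fold, developmental minus processing, was 0.21 with windows of 1 and 5 kb, any transcript start and the coding transcript start. The windows and any transcript start left every member with the same strongest peak, so this difference did not move. With the coding start the fold of Lin28b fell to 13.29, but the developmental median stayed at the 45.18 of Lin28a. By peak midpoint the difference was reversed to −15.43, since Trim71 then has no peak. The difference in covered bases of the window, 104.5 bp in favour of the developmental genes, was 39.0 bp with a window of 1 kb, 1748.5 bp with 5 kb 516.5 bp with the coding transcript start and 478.5 bp with any transcript start. For the group medians, the transcript starts and midpoints were added after seeing the data. In the bodies, the 20 H3K4me3 peaks became 18 with a −log10 q of at least 5, and the 93 ATAC-seq peaks became 52 with the widest 50% of that list. Around the genes, the 15 H3K4me3 peaks became 8 at 10 kb and 25 at 50 kb, and the 51 ATAC-seq peaks became 21, 91 and, with the widest 50%, 26. Smaller surroundings and shorter lists hold fewer peaks by construction. Of the 25 pathway genes, 24 kept an H3K4me3 peak within 1 kb. No paired analysis was possible because the 2 replicates of an assay were merged into a common list, and leaving out a replicate was not run for the same reason. Without counts, depth limits are unknown, and a missing peak says only that none was called.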

Other observations

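The genes whose windows were most like those of the members, by distance over H3K4me3 cover, fold and ATAC-seq cover on standardised log2 scales among protein-coding genes, were of many kinds. For Lin28a they were Ptprg (distance 0.013), a receptor tyrosine phosphatase with a fold of 45.87 and 3803 bp covered, Tob1 (0.014) and Afdn (0.016). The nearest to Lin28b was Sh3bp1 (0.010) and to Trim71 Qk (0.026), an RNA-binding protein with 3157 bp covered, a fold of 50.78 and 2380 bp under ATAC-seq peaks. The nearest to Dgcr8 was Ccdc191 (0.013), to Drosha Prrc2a (0.012), to Dicer1 Cept1 (0.007) and to Ago2 Arf6 (0.016). Likeness in 3 measures of 1 window says nothing of shared function or control.

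Among the genes of the pathway lists, the let-7 seed match CTACCTC was repeated in the 3′ UTR of Hmga2 (4 matches in 3014 bp, reached by 0.123% of genes of like length) and Igf2bp1 (4 in 6337 bp, 0.331%). The strongest start peak among the pathway genes was that of Tnrc6a, a partner of the Argonautes, with a fold of 73.89 over 2669 bp, above all 7 members. Ago1, Ago3 and Ago4 had start peaks with folds of 34.12, 34.81 and 33.23, all below the 58.50 of Ago2.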
